A study of Mus musculus with 31 samples.

Results

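The interferon-inducible GTPases described here are the guanylate-binding proteins (GBP) Gbp2b, Gbp2, Gbp3 and Gbp4 and the immunity-related GTPases (IRG) Igtp, Irgm1, Iigp1, Ifi47 and Tgtp1. They were chosen by gene symbol, taking each probe whose only symbol was a member's. Earlier results of these data were known at that choice, among them the sparse values of Gbp2b in wild-type cells. Of these 9 genes 8 had a probe, 1 probe each among the 13872 probes of the array. Gbp4 had none. The probes are Gbp2b (5787), Gbp2 (368), Gbp3 (11286), Igtp (11277), Irgm1 (11360), Iigp1 (13387), Ifi47 (11066) and Tgtp1 (13360).

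The series holds 31 spotted two-dye arrays of bone-marrow macrophages, each setting RNA of stimulated cells against RNA of cells of the same mouse number given medium alone (mock). Marrow came from C57BL/6J wild-type mice and from mice lacking MyD88 (MyD88-/-), 6 to 8 weeks old, and was grown for 8 days with medium conditioned by L929 cells, a source of the macrophage growth factor CSF-1. The cells were stimulated for 2 hours with re-purified LPS at 10 ng/mL, or with live E. coli at 1 bacterium per macrophage. Both genotypes received both stimuli, with 4 mice in each of the 4 groups, and each stimulated sample was hybridised with the dyes both ways round. The exception is mouse 4 of the MyD88-/- LPS group, with 1 unswapped array. Values are log2 ratios as the authors normalized them. They are read as stimulated over mock. That direction is likely, since the titles name the stimulus first and Il1b lay above 0 in every group mean, but no label states it. Swapped and unswapped arrays were averaged into 1 value for each mouse and stimulus, and an error given as SD is the spread of these mouse values. The number of arrays limits the precision. In bulk RNA a change in the share of cells that express a gene and a change in message per cell cannot be told apart. Where 4 group values follow each other, they run in the order wild-type with LPS, MyD88-/- with LPS, wild-type with E. coli, MyD88-/- with E. coli.

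The disrupted gene, Myd88 (probe 12197), gave log2 ratios of 1.38, 2.16, 1.48 and 1.29. Both channels of an array carry the same genotype, so the ratio says nothing about the level of this message or about the knockout. Of 12 macrophage markers 11 had a probe, and 9 of them had values on 24 or more of the 31 arrays. Among markers of lymphocytes that make interferon-gamma, 1 of 7 T cell genes and 0 of 7 NK cell genes had values on 24 or more arrays, and Cd3e had none. The 1 of them that could be tested was called in no response. Of the other markers, Blnk, an adaptor of B cell signalling, fell in all 4 groups by limma (log2 ratios of -0.69 and -0.85 in wild-type and MyD88-/- cells with LPS, -0.69 and -0.84 with E. coli). Fcgr1 fell in 3 groups (by 0.47 to 0.58), Cd68 in wild-type LPS, C1qa in wild-type E. coli and Cd79a in MyD88-/- LPS cells. Zbtb46 rose in wild-type LPS cells at probe 9213 (0.70), while its probe 4552, with values on 20 of 31 arrays, had a mean of -0.16 there. The part of these markers in the members' values was not tested.

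GBP and IRG proteins are GTPases that interferons induce in macrophages and many other cells. They assemble on vacuoles and on bacteria in the cytosol, where GBPs help to release LPS to the caspase-11 pathway. Most IRG proteins (the GKS class, here Iigp1, Ifi47 and Tgtp1) coat vacuole membranes, while the GMS class (Irgm1 and Igtp, also called Irgm3) sits on the cell's own membranes and holds the GKS proteins inactive there. Interferon-induced genes are known for promoter elements called gamma-activated sites (GAS) and interferon-stimulated response elements (ISRE), the latter bound by factors such as IRF1. LPS reaches interferon through the adaptor TRIF, and MyD88 is the other main adaptor of the LPS receptor Tlr4.

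Because most members varied together from mouse to mouse, the promoter windows of RefSeq (GRCm38.p6) were searched for the 2 core motifs of this pathway, on both strands, from 250 bases before to 50 bases after the annotated start. The ISRE core was written GAAANNGAAA and the GAS core TTCNNNGAA. Of the members 7 have an entry, and the members without one are Gbp4 and Iigp1. The 150 bases before the start are shown for these 7 genes, in the gene's direction, with matches in capitals, since the place and number of the matches differ between the members. An ISRE core on the other strand reads TTTCNNTTTC here.
Gbp2b, chr3:142594697-142594846, plus strand: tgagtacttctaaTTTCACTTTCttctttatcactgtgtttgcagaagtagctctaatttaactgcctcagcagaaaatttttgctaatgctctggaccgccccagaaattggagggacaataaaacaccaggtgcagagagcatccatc
Gbp2, chr3:142620513-142620662, plus strand: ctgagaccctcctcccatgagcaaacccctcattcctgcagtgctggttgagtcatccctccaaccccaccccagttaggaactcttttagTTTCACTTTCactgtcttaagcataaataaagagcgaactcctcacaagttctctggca
Gbp3, chr3:142559894-142560043, plus strand: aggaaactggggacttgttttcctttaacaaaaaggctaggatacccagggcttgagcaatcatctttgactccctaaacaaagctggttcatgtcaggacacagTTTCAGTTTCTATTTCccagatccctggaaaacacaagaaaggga
Igtp, chr11:58199406-58199555, plus strand: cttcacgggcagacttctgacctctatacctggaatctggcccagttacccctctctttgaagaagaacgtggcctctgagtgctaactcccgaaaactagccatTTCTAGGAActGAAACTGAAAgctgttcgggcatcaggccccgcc
Irgm1, chr11:48871421-48871570, minus strand: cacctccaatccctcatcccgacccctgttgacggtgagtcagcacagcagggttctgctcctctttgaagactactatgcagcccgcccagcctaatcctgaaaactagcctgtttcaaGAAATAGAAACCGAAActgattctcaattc
Tgtp1, chr11:48992247-48992396, minus strand: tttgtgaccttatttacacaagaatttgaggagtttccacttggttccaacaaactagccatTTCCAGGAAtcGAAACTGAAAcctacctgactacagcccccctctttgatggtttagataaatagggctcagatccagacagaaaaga
Ifi47, chr11:49076437-49076586, plus strand: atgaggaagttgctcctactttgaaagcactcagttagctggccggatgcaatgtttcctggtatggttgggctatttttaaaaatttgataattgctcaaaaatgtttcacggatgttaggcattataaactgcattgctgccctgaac

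The ISRE core occurred in a window of 6 of the 7 members. Of all 32851 windows of the same length, 1131 held it (3.44%). Its first base lay at position -137 in Gbp2b, -59 in Gbp2, -34 in Igtp and -77 in Tgtp1, counting the first transcribed base as 0. Gbp3 had overlapping matches at -45 and -39, and Irgm1 at -30 and -24, each pair sharing 4 bases. In Gbp2b, Gbp2 and Gbp3 the motif reads on the strand opposite to the gene and in Igtp, Irgm1 and Tgtp1 on the gene's own strand. Gbp3 has a second annotated start, whose window held neither motif. The gene was counted once, by its window with matches, while the share over all windows counts each window.

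The GAS core occurred in a window of 2 of the 7 members, Igtp and Tgtp1, against 8.3% of all windows. In both it stands directly before the ISRE core, with 2 bases between them, at -45 in Igtp and -88 in Tgtp1. The spacing was looked for after these matches were seen. The same arrangement occurred in 5 of the 32851 windows (0.0152%), namely Igtp, Tgtp1, Irgm2, Gm12185 and Tgtp2, all on chromosome 11. The Igtp and Irgm2 genes are neighbours, and their windows share a run of 55 identical bases. The Ifi47 window holds neither motif within these bases. A match is a description of the letters, and binding was not measured in these arrays.

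**Figure D1:**
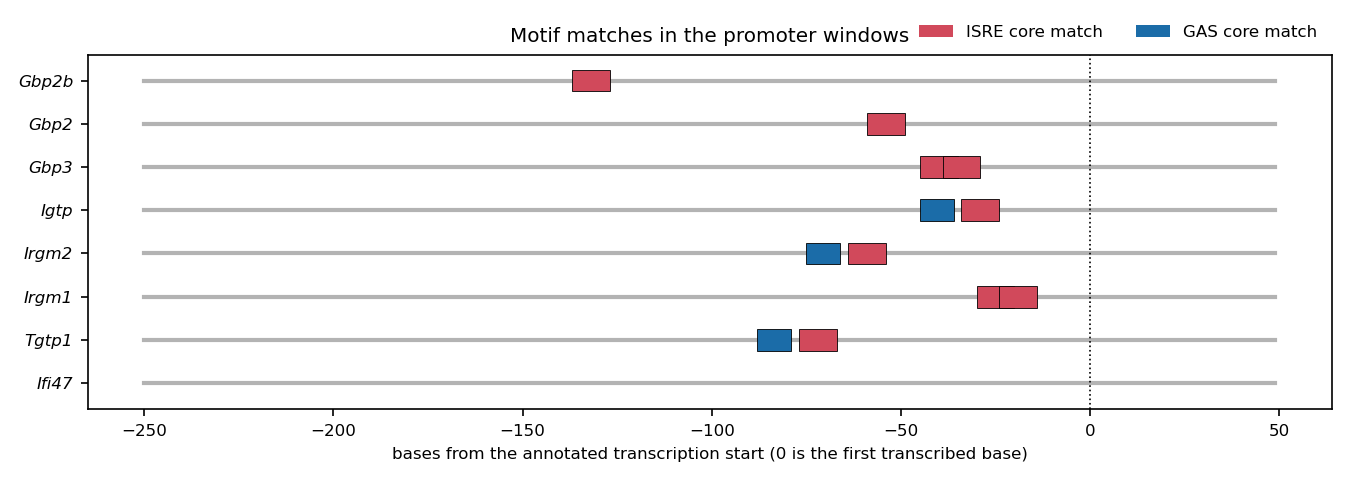
Promoter windows of the 7 members with an entry and of Irgm2, from 250 bases before to 50 bases after the annotated start (x axis, bases; the dotted line is the first transcribed base), with matches to the ISRE core (red) and the GAS core (blue) on either strand; for Gbp3 the start with matches is drawn. In Igtp, Irgm2 and Tgtp1 a GAS core stands just before the ISRE core, and the Ifi47 window is empty.

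The members lie in small clusters. On chromosome 3, Gbp3, Gbp2b and Gbp2 follow each other with no other protein-coding gene between them. Igtp, Irgm1, Ifi47 and Tgtp1 are on chromosome 11, where Ifi47 lies next to Tgtp2, a near-identical copy of Tgtp1. The probe sequences are not given in the sources used here, so signal of Tgtp2 at the Tgtp1 probe, or of one Gbp gene at the probe of another, cannot be told apart from signal of the named gene.

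The members first differ in how often they were measured. Gbp2b had a value on 2 of 8 wild-type LPS arrays, 6 of 7 MyD88-/- LPS arrays, 0 of 8 wild-type E. coli arrays and 7 of 8 MyD88-/- E. coli arrays. Another 1 wild-type LPS array and 1 wild-type E. coli array held the floor value of -6.64, which stands for a ratio of 0.01 and was treated as missing. Pooled over stimuli, it had a value on 13 of 15 MyD88-/- arrays and 2 of 16 wild-type arrays, a gap of 74.2 percentage points. This pattern is part of how the gene was chosen and is given without a test. For scale, it was the largest gap of all 13872 probes, where the next was 66.7, the lowest -73.3 and the median 0.417 percentage points. Over all probes, the mean share with a value was 60.5%, 64.8%, 56.9% and 61.2% of arrays in the 4 groups. The authors' spot filter is not given in the sources used here, so the level of Gbp2b behind a missing value is unknown.

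No other member shows that pattern. Gbp3, Irgm1 and Ifi47 had a value on all 31 arrays. Igtp lacked a value on 1 MyD88-/- LPS array, Tgtp1 on 1 MyD88-/- E. coli array and Gbp2 on 1 array of each MyD88-/- group. Iigp1 was measured unevenly, with values on 4 of 8, 4 of 7, 6 of 8 and 3 of 8 arrays in the order above, or 10 of 16 wild-type and 7 of 15 MyD88-/- arrays. Testing required values from 3 or more of the 4 mice in each group. This left 6 member probes, those of Gbp2, Gbp3, Igtp, Irgm1, Ifi47 and Tgtp1, among 7325 tested probes. Gbp2b and Iigp1 are therefore described by their values.

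**Figure D2:**
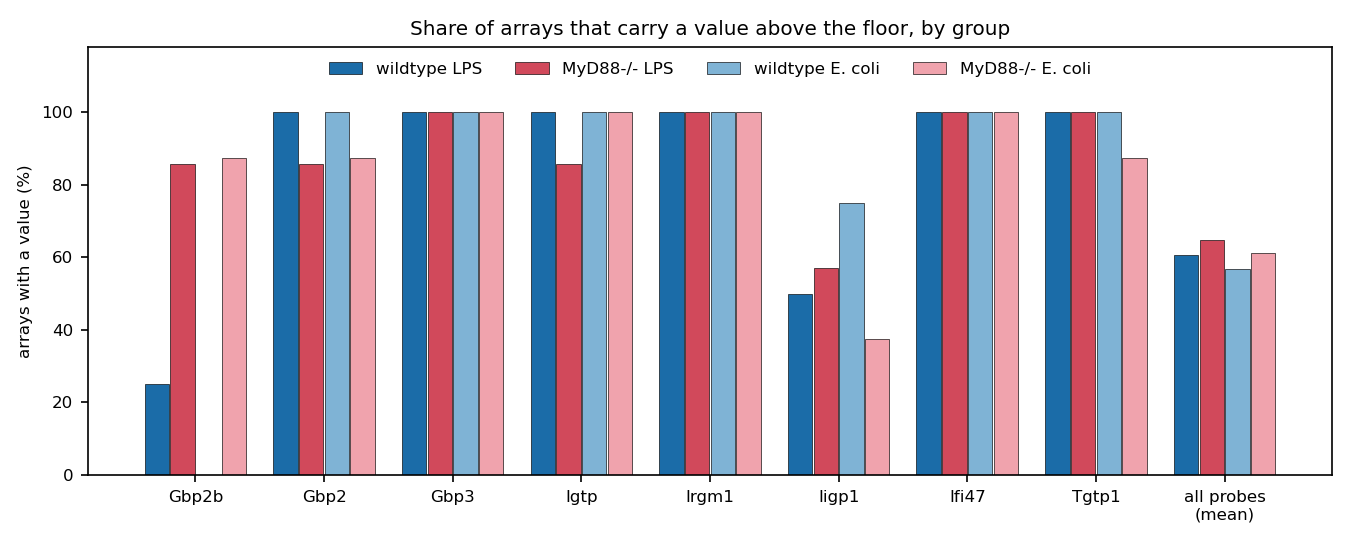
Percent of arrays with a value above the floor (y axis) for each member probe and, at the right, the mean over all probes, in the 4 groups (bars; 7 MyD88-/- LPS arrays and 8 arrays in each other group). Gbp2b had a value on 25% and 0% of wild-type and on 85.7% and 87.5% of MyD88-/- arrays, while the other members except Iigp1 had a value on 85.7% or more in each group.

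The ratios ask which of these genes changed within 2 hours of each stimulus and whether that differed without MyD88. In wild-type cells given LPS, 3 of the 6 tested members rose, Gbp2, Gbp3 and Igtp, where 7.99% of all tested probes rose and 9.04% fell. In MyD88-/- cells given LPS all 6 rose, where 5.28% of all probes rose and 4.7% fell. With E. coli all 6 rose in wild-type cells (9.43% of all probes rose, 11.8% fell) and all 6 in MyD88-/- cells (6.35% rose, 4.42% fell). No tested member was called lower in any group. The members were chosen with earlier results of these data known, so the shares of all probes are given for scale only. The median log2 ratio of the 6 was 0.98, 2.31, 1.92 and 2.73 in this order, where the median of all tested probes was -0.05, -0.05, -0.06 and -0.05. Calls rest on limma with Benjamini-Hochberg adjustment over the 7325 probes at 0.05. Each LPS group was also fitted alone over the probes measured in 3 or more of its mice. This alternative was chosen after the data were seen. It called 1 tested member in wild-type cells, where 4.02% of all probes were called in either direction. In MyD88-/- cells it called 3, where 2.77% of all probes were called in either direction. With the E. coli groups fitted alike, the tested members lost only the Irgm1 call in wild-type cells (adjusted p = 0.104). Gbp2b was left out of these counts, because it was chosen on these values.

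Gbp3 had the largest mean log2 ratio of the tested members in both MyD88-/- groups. With LPS the 4 wild-type mice gave log2 ratios of 2.24, 1.52, 2.16 and 1.76, and the MyD88-/- mice 3.33, 4.94, 2.26 and 4.11. With E. coli the wild-type mice gave 3.26, 3.74, 2.39 and 2.13 and the MyD88-/- mice 3.38, 5.02, 3.49 and 3.94. The LPS ranges do not overlap, although the highest wild-type mouse (2.24) and the lowest MyD88-/- mouse (2.26) nearly meet, and the E. coli ranges overlap. Gbp3 rose in all 4 groups, by 1.92 ± 0.37 (SE, adjusted p = 0.00176) in wild-type and 3.66 (6.51e-06) in MyD88-/- cells with LPS, and by 2.88 (3.8e-05) and 3.96 (2.56e-06) with E. coli. With LPS this is 12.6-fold over mock in MyD88-/- and 3.79-fold in wild-type cells. The SE depends only on the gene and the number of mice, so it is given once for each gene and number of mice.

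Gbp2 was high in every group, and its ranges overlap between the genotypes. Its log2 ratios were 4.39, 2.23, 1.82 and 2.33 in wild-type LPS, 2.58, 2.42, 2.99 and 3.57 in MyD88-/- LPS, 4.15, 3.75, 2.48 and 2.29 in wild-type E. coli, and 2.89, 3.88, 2.42 and 3.28 in MyD88-/- E. coli mice. Each range lies within or across the others, and wild-type mouse 1 gave the highest ratio with either stimulus. Gbp2 rose by 2.69 ± 0.39 (SE, adjusted p = 0.000139), 2.89 (0.0001), 3.17 (2.48e-05) and 3.12 (4.61e-05). Swapped and unswapped arrays of a mouse differed by a median of 1.20 for Gbp2 and 1.23 for Gbp3, against 0.47 over all probes.

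Gbp2b, also known as mouse Gbp1, differed most between the genotypes, over few wild-type values. Wild-type LPS mice 3 and 4 gave log2 ratios of -1.38 and -0.08, each from 1 array, and no wild-type E. coli mouse gave one. The MyD88-/- mice gave 4.52, 3.65 and 2.59 with LPS (mouse 4 had no value) and 3.28, 6.57, 4.50 and 4.09 with E. coli. The 6.57 of mouse 2 came from 1 unswapped array. For Gbp2b, unswapped arrays read higher than swapped ones in 5 of 6 pairs, by a median of 1.43. The part of this in the means was not tested. Both wild-type values lie below 0, and all 7 MyD88-/- values are 2.59 or more. The MyD88-/- means were 3.59 ± 0.96 (SD, n = 3) with LPS and 4.61 ± 1.40 (SD, n = 4) with E. coli, the highest of the 8 members in the E. coli group. Since Gbp2b was chosen for this pattern, no test is given.

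**Figure D3:**
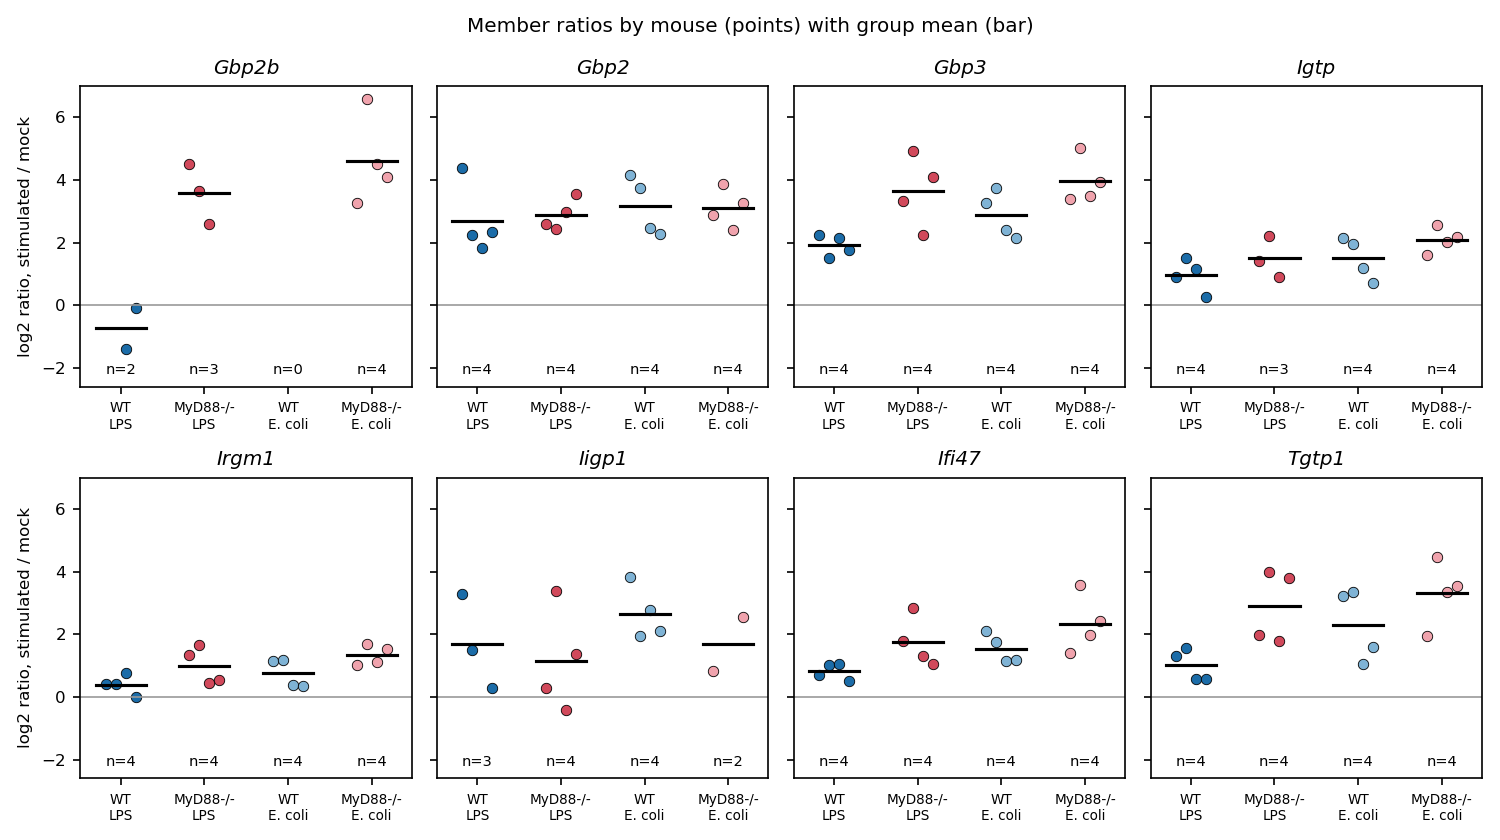
Log2 ratio of stimulated over mock (y axis) of the 8 member probes in the 4 groups (x axis); each point is a mouse, bars are group means, and n is the number of mice with a value. Gbp2b had 2 wild-type LPS mice, both below 0, and no wild-type E. coli mouse, while its MyD88-/- mice run from 2.59 to 6.57.

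Igtp and Irgm1 encode the regulatory GMS class. Igtp gave 0.92, 1.5, 1.17 and 0.28 in wild-type LPS, 1.42, 2.20 and 0.89 in MyD88-/- LPS (mouse 4 had no value), 2.15, 1.96, 1.21 and 0.72 in wild-type E. coli, and 1.61, 2.58, 2.01 and 2.17 in MyD88-/- E. coli mice. All 15 ratios lie above 0, and the genotypes overlap for either stimulus. Igtp rose by 0.97 ± 0.26 (SE, adjusted p = 0.0204), 1.5 ± 0.30 (SE over 3 mice, 0.00464), 1.51 (0.000884) and 2.09 (7.73e-05). Its wild-type LPS call was lost without wild-type LPS mouse 1, 2 or 3, with adjusted p of 0.0565, 0.107 and 0.0705, and it passed in 17 of 22 alternatives (0.00125 to 0.108).

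Irgm1, the best known of the GMS class for its part in autophagy and resistance to mycobacteria, had the lowest mean ratio of the 6 tested members in each group. It gave 0.39, 0.40, 0.77 and -0.01 in wild-type LPS, 1.34, 1.65, 0.43 and 0.54 in MyD88-/- LPS, 1.15, 1.16, 0.39 and 0.33 in wild-type E. coli, and 1.01, 1.68, 1.11 and 1.52 in MyD88-/- E. coli mice. Only wild-type LPS mouse 4 lies below 0. The wild-type LPS value of 0.39 ± 0.21 (SE, adjusted p = 0.245) did not pass the test, and Irgm1 rose in the other groups, by 0.99 (0.00639), 0.76 (0.0186) and 1.33 (0.000516). The wild-type E. coli call was lost without wild-type E. coli mouse 1 (adjusted p = 0.0966) or mouse 2 (0.0906), and passed in 22 of 27 alternatives (0.000944 to 0.104).

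Tgtp1 and Ifi47 encode effector IRG proteins of the GKS class. Like the other tested members, both had their lowest mean ratio in wild-type LPS cells. The mean of Iigp1, of the same class, was lowest in MyD88-/- LPS cells. Tgtp1 gave 1.31, 1.56, 0.56 and 0.57 in wild-type LPS, 1.99, 4.00, 1.79 and 3.79 in MyD88-/- LPS, 3.22, 3.33, 1.06 and 1.60 in wild-type E. coli, and 1.94, 4.47, 3.34 and 3.55 in MyD88-/- E. coli mice. With LPS every MyD88-/- mouse exceeded every wild-type mouse, and with E. coli the ranges overlap. Its wild-type LPS value of 1.00 ± 0.46 (SE, adjusted p = 0.158) did not pass the test, and it rose by 2.89 (0.000485), 2.30 (0.00194) and 3.32 (0.000121) in the other groups.

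Ifi47 gave 0.69, 1.02, 1.06 and 0.51 in wild-type LPS, 1.77, 2.82, 1.31 and 1.06 in MyD88-/- LPS, 2.10, 1.75, 1.13 and 1.17 in wild-type E. coli, and 1.40, 3.58, 1.97 and 2.41 in MyD88-/- E. coli mice. The LPS groups are separate only by the third decimal, with 1.061 the highest wild-type and 1.062 the lowest MyD88-/- value, and the latter is the mouse with 1 unswapped array. Unswapped arrays read higher than swapped ones for Ifi47 in 14 of 15 pairs, by a median of 0.40, and the part of this in the separation was not tested. Its wild-type LPS value of 0.82 ± 0.31 (SE, adjusted p = 0.0836) did not pass the test but did in the fit with a dye term and the mouse as a random block (0.0114), and passed in 6 of 27 alternatives (0.00927 to 0.219). It rose by 1.74 (0.00131), 1.54 (0.00206) and 2.34 (8.07e-05) in the other groups.

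Iigp1, a well-studied IRG protein that coats parasite vacuoles, gave 3.29, 1.49 and 0.30 in wild-type LPS (3 mice), 0.28, 3.39, -0.41 and 1.38 in MyD88-/- LPS, 3.83, 1.93, 2.77 and 2.10 in wild-type E. coli, and 0.83 and 2.54 in MyD88-/- E. coli mice (2 mice). In wild-type E. coli mice no value was below 1.93. That group was also fitted alone, over the 8619 probes with enough values there (6.81% of them called, in either direction). This alternative was chosen after the data were seen, and it tests Iigp1 in the group where its mean was highest. There Iigp1 rose by 2.66 ± 0.34 (SE, adjusted p = 0.0126 by limma). It did not pass in the corresponding fits of wild-type LPS (1.69, adjusted p = 0.253) and MyD88-/- LPS (1.16, adjusted p = 0.427), and MyD88-/- E. coli had too few values. Its means were lower in MyD88-/- than in wild-type mice with both stimuli, the opposite of the order of Gbp3, Igtp, Irgm1, Ifi47 and Tgtp1, with ranges that overlap.

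The comparison of the genotypes asks whether these responses needed MyD88. No tested member passed in either stimulus by limma, where 0.0683% of all probes were called higher and 0.218% lower in MyD88-/- cells for LPS, and 0.205% higher and 0.546% lower for E. coli. For LPS the difference, MyD88-/- minus wild-type, was above 0 in all 6 members, with a median of 0.76 against 0.01 for all tested probes, of which 51.8% were above 0. It was 1.74 for Gbp3 (95% interval 0.63 to 2.84, unadjusted p = 0.00434, adjusted p = 0.278) and 1.89 for Tgtp1 (0.51 to 3.26, unadjusted p = 0.0104, adjusted p = 0.387), and these 2 passed an unadjusted 0.05. By dye orientation, the Gbp3 difference was 0.61 on swapped arrays alone and 2.5 on unswapped arrays alone, and that of Tgtp1 was 2.5 and 1.12. The difference was smallest for Gbp2, at 0.20 (interval -0.96 to 1.36), and its sign turned with the dye orientation, at -0.87 on swapped and 1.15 on unswapped arrays alone. Of the 6 tested members, 3 had LPS ranges that do not overlap with MyD88-/- higher (Gbp3, Ifi47 and Tgtp1), where 3.4% of all tested probes did, and 3.28% with MyD88-/- lower.

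For E. coli the difference was above 0 in 5 of 6 members, with a median of 0.69 against 0.02 for all probes, and 0 passed an unadjusted 0.05. Gbp3 differed by 1.08 (interval -0.03 to 2.18, adjusted p = 0.391), Tgtp1 by 1.02 (-0.36 to 2.39, adjusted p = 0.538), Ifi47 by 0.80, Igtp by 0.58 and Irgm1 by 0.57. Gbp2 gave -0.05 (-1.21 to 1.11), with -0.90 on swapped and 0.35 on unswapped arrays alone. No member had ranges apart with E. coli, where 4.78% of all probes had them with MyD88-/- higher and 4.3% with MyD88-/- lower. A lower ratio in wild-type cells can come from less message after the stimulus or from more in mock cells, which a ratio cannot tell apart.

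The comparison of the stimuli within a genotype gave positive differences, E. coli minus LPS, for all 6 tested members in both genotypes. In wild-type cells they ran from 0.37 for Irgm1 to 1.30 for Tgtp1 (interval -0.07 to 2.68), and in MyD88-/- cells from 0.23 for Gbp2 to 0.60 for Ifi47. On arrays of 1 dye orientation alone, Gbp2 was below 0 in both genotypes (-0.06 and -0.09, swapped), as were Gbp3 (-0.26, unswapped) and Tgtp1 (-0.13, swapped) in MyD88-/- cells. None passed by limma (adjusted p = 0.9989 in wild-type and 0.9997 in MyD88-/- cells, 0 at an unadjusted 0.05), and 0% of all probes were called in either. The ranges of Ifi47 in wild-type cells did not overlap, from 0.51 to 1.06 with LPS and from 1.13 to 2.10 with E. coli, as for 1.61% of all tested probes. The labels do not say whether mice of the same number are the same animals in both stimuli, or share mock RNA. The intervals and p-values of these differences treat them as separate animals.

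**Figure D4:**
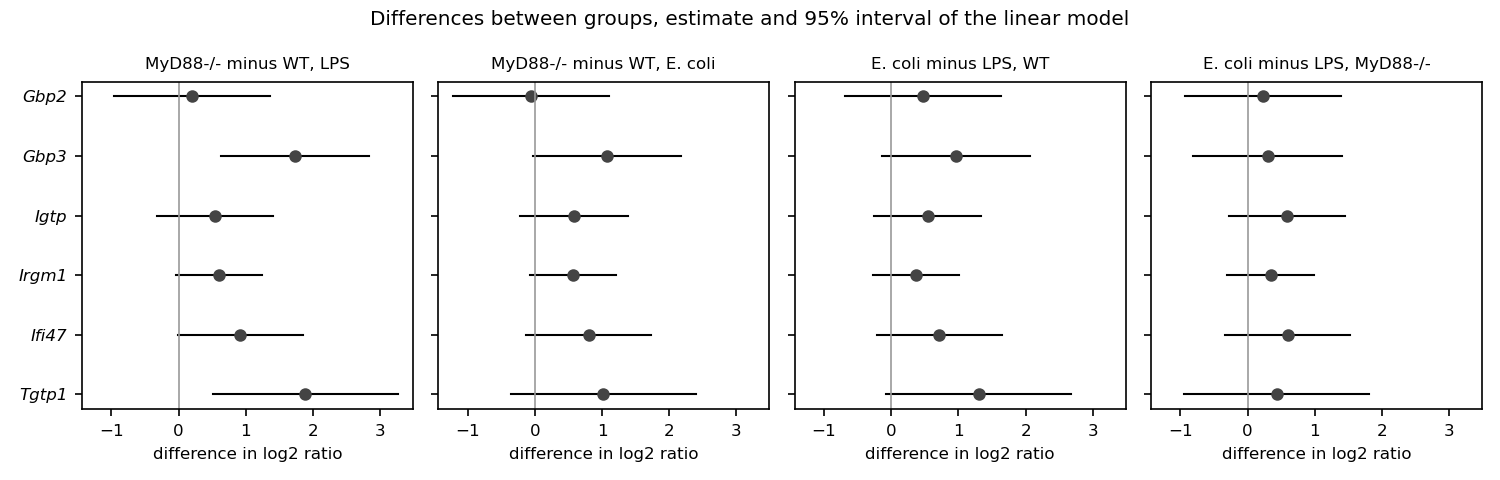
Differences in log2 ratio (x axis) of the 6 tested members for the genotype comparisons and the stimulus comparisons, in 4 panels; points are limma estimates and lines their 95% intervals. Gbp3 and Tgtp1 have intervals above 0 for MyD88-/- minus wild-type with LPS. The Gbp2 estimates are nearest 0 in both genotype panels, with intervals from -0.96 to 1.36 with LPS and -1.21 to 1.11 with E. coli.

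The tested members varied together from mouse to mouse, Gbp2 less closely than the others. Over the 15 or 16 mouse ratios, the Pearson correlations of the 15 pairs of tested members had a median of 0.842, and a median of 0.720 after the group means were removed. The highest were Gbp3 with Tgtp1 (0.911) and Irgm1 with Ifi47 (0.910). Gbp2 correlated with the others between 0.243 and 0.481, while a member's correlation with other tested probes had a median of 0.0006. Members of a mouse share the same RNA and arrays, so these are descriptions. The mean of the 5 members with a value in all 16 mouse ratios (Gbp2, Gbp3, Irgm1, Ifi47 and Tgtp1) ran from 1.03 to 1.81 in wild-type and 1.75 to 3.17 in MyD88-/- mice with LPS, and from 1.49 to 2.78 in wild-type and 2.12 to 3.72 in MyD88-/- mice with E. coli. MyD88-/- mouse 2 gave the highest ratio of its group for 4 of the 5 with LPS and for all 5 with E. coli. Without that number in both stimuli, an alternative chosen after the data were seen, none of the 5 members that could then be tested lost a call (Igtp could not), and Ifi47 passed in wild-type LPS cells (adjusted p = 0.00927).

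**Figure D5:**
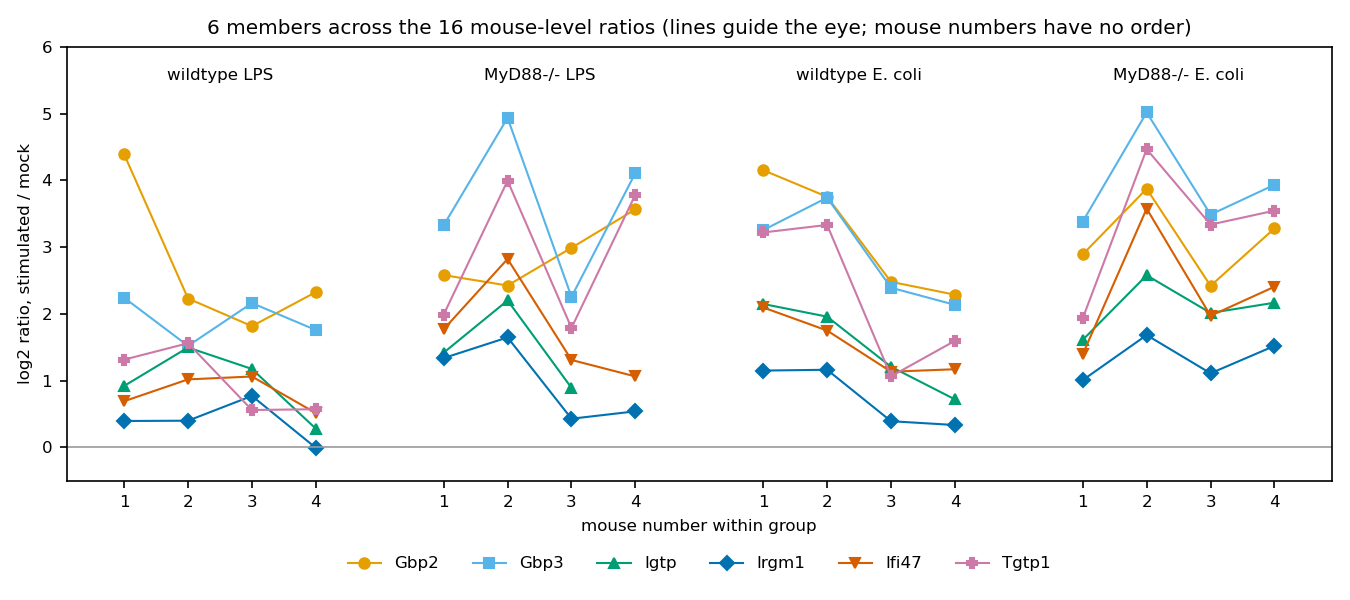
Log2 ratio of stimulated over mock (y axis) of the 6 tested members in each mouse (x axis) of the 4 groups; lines only guide the eye, since mouse numbers have no order. Gbp3, Igtp, Irgm1, Ifi47 and Tgtp1 are highest together in MyD88-/- mouse 2 with either stimulus, and Gbp2 departs from them in MyD88-/- LPS mice 2 and 3.

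The probes most like the mean of those 5 members over the 16 mouse ratios, among 4694 named probes compared, were Tap1 (r = 0.967), Ifit1 (0.929), Sgf29 (0.874), Trim25 (0.872) and Trex1 (0.845). The median r of all compared probes was 0.007. They follow the pattern at other heights, since the mean absolute difference from the member mean was 1.63 for Tap1 and 0.38 for Trex1. Tap1, a peptide transporter of antigen presentation, gave 0.05, 0.70, 0.46 and 1.02, and Ifit1, an interferon-induced RNA-binding protein, 1.88, 4.02, 3.32 and 4.07. Tap1 passed in both MyD88-/- groups (adjusted p = 0.0409 and 0.00358) and Ifit1 in all 4. The genotype difference of Tap1 passed for neither stimulus by limma (adjusted p = 0.531 with LPS and 0.427 with E. coli).

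Of 20 other GBP and IRG genes looked for, 2 had a probe, and both were tested. Irgm2, the third GMS gene, rose in all 4 groups by limma, by 0.88 (adjusted p = 0.0345), 1.62 (0.000734), 1.33 (0.00216) and 2.36 (1.96e-05). Its unswapped arrays read higher than swapped ones in 13 of 14 pairs, by a median of 1.00. The part of this in its ratios was not tested. Gbp8 rose in wild-type E. coli cells alone among the 4 (0.61, adjusted p = 0.0152), and the genotype difference did not pass for either stimulus. Mx1 and Mx2 are antiviral dynamin-like GTPases that interferons also induce. Mx2 rose in all groups (1.75, 1.99, 3.77 and 2.53), and Mx1 in both wild-type groups (0.61 and 0.88), giving 0.25 and 0.15 in MyD88-/- cells. The genotype difference of Mx1 passed for neither stimulus by limma, at -0.36 with LPS (adjusted p = 0.679) and -0.73 with E. coli (0.12).

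The upstream pathway was measured in part, over gene lists that were also chosen with earlier results of these data known. For scale, 7.99%, 5.28%, 9.43% and 6.35% of all tested probes rose in the 4 groups, and 9.04%, 4.7%, 11.8% and 4.42% fell. Of 16 genes of the interferon receptors and JAK-STAT signalling 11 were tested, of which 4, 2, 3 and 5 rose in the 4 groups and none fell. Jak2, a kinase of the interferon-gamma receptor, rose most, by 3.32, 2.78, 3.85 and 2.64. Socs1, the feedback inhibitor of these kinases, rose in wild-type cells by 1.58 and 3.25 and gave 0.72 and 0.73 in MyD88-/- cells, a difference of -2.52 with E. coli (adjusted p = 0.0405). The Socs1 difference with LPS was -0.86 and did not pass by limma (adjusted p = 0.68). Of 18 interferon and IRF genes 11 were tested, of which 2, 3, 4 and 4 rose and 1 fell in each group. Irf1, a direct activator of GBP genes, rose by 3.61, 4.33, 3.96 and 4.23, and Irf8 fell to -1.33, -1.51, -0.75 and -1.40. Ifnb1, the interferon-beta gene, rose in wild-type E. coli cells (1.75) and gave 0.70, 0.32 and 0.26 in the other groups, in the order above. The Ifnb1 difference between the genotypes with E. coli, -1.49, did not pass by limma (adjusted p = 0.105).

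Genes whose products place the GTPases or work beside them were also counted, from lists chosen in the same way. Again, 9.04%, 4.7%, 11.8% and 4.42% of all tested probes fell in the 4 groups, and 7.99%, 5.28%, 9.43% and 6.35% rose. Of 16 autophagy genes 11 were tested. Of these 3, 1, 4 and 2 fell in the 4 groups, and 1 (Ulk1, 0.44) rose, in wild-type LPS cells. Map1lc3b, which encodes the autophagosome protein LC3B, fell in all 4, to -0.80, -0.43, -0.86 and -0.45. Of 7 prenylation regulators 4 were tested and 1 fell, Arhgdib in wild-type LPS cells (-0.48). Of 12 caspase and inflammasome genes 6 were tested, of which 4, 5, 4 and 5 rose: Casp4, the caspase-11 gene, by 1.34, 1.41, 1.66 and 1.54, and the inflammasome adaptor Pycard by 1.35, 1.32, 1.63 and 1.68. Il1b differed between the genotypes with E. coli, by -4.90 (adjusted p = 0.0176).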

How the data were processed

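RNA was compared on 31 two-dye arrays from 4 groups. Per the labels, the slides were scanned with a GenePix scanner, quantified with GenePix Pro and analysed in BASE and GeneSpring. The deposited values are log2 ratios as the authors normalized them; background correction, normalization and spot filter are not given in the sources used here. Column medians lay between -0.122 and 0.0794, and arrays held 5564 to 10497 values. Values at the floor, log2(0.01) or -6.64 (4333 of 265421), were treated as missing, and dye pairs were averaged into 16 mouse-level ratios. Swapped and unswapped arrays of a mouse correlated between 0.256 and 0.71 across probes, so none was turned. limma 3.58.1 (lmFit and eBayes, R 4.3.3) fitted 1 mean for each group to 7325 probes with values in 3 or more mice of every group, tested on simulated data first, and p-values were adjusted by Benjamini and Hochberg over those probes. All p are 2-sided. Whether the labels' mouse numbers pair samples is not stated. The p-values measure the spread of the mouse-level ratios, which holds error of arrays and dyes as well as differences between mice. Arrays of a mouse had a consensus correlation of 0.118 in the fit with the mouse as a random block. Of 13872 probes 11480 had 1 symbol, 50 several and 2342 none, per the platform annotation. All 8 member symbols matched a current gene by Entrez ID. The members and the gene lists were chosen with earlier results of these data known. The lists cover other GBP and IRG genes, dynamin-like GTPases, JAK-STAT, interferon and IRF, autophagy, prenylation, caspase and inflammasome genes, and markers of 8 cell types. Named from each list were at most the 3 called probes of largest absolute ratio in a comparison, and for likeness the 5 probes with the highest r. Alternatives were array centring and scaling, single dye orientations, other value filters, the floor kept, fits of the compared groups alone, a dye term with the mouse as a random block, a replicate block and leaving out each mouse. Figures were drawn with matplotlib 3.10.9.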

Additional observations from a re-analysis of the deposited data

Results flagged for a closer look

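Gbp2b with LPS is the 1 result that stands out by the direction of its samples. The mean log2 ratio of MyD88-/- mice exceeded that of wild-type mice by 4.32, with both wild-type mice below 0 (-1.38 and -0.08) and all 3 MyD88-/- mice above 0 (2.59 to 4.52). The difference was not tested, because the gene was chosen for this pattern and 2 wild-type mice have a value, each from 1 array. Of 26 groups of 4 mice of 8 members, 0 had a mouse apart from the other 3 by Dixon's test, which chance would flag in about 1 of 20 groups.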

How the results depend on the processing

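Of 632 alternative values for the 48 results of single tested members, omissions of single mice entering as their lowest and highest value, 615 kept their side of the threshold, 13 lost a call and 4 gained one. None of the called values changed sign. Of the differences between genotypes or stimuli, none of which was called, that of Gbp2 changed sign in all 4 comparisons, and those of Gbp3 and Tgtp1 between the stimuli in MyD88-/- cells. Leaving out single mice, the members called ranged from 2 to 4 in wild-type LPS, from 5 to 6 in each of the other groups, and were 0 in the genotype and stimulus differences. Igtp could not be tested without MyD88-/- LPS mouse 1, 2 or 3, and the 5 called in either MyD88-/- group were then all 5 tested. In wild-type E. coli cells Irgm1 lost its call without mouse 1 or 2 of that group (0.0966 and 0.0906). Fitting a group alone with its own value filter, an alternative chosen after the data were seen, called 1 member in wild-type LPS (Gbp3) and 3 in MyD88-/- LPS cells (Gbp2, Gbp3 and Tgtp1), leaving out Gbp2b, which was chosen on these values, with fewer mice behind the spread. In wild-type LPS cells Gbp2 then had an adjusted p = 0.0517 by limma. Fitted alone on the same probes, Igtp lost its call in wild-type LPS and MyD88-/- LPS cells (0.0583 and 0.0628) and Irgm1 in MyD88-/- LPS and wild-type E. coli cells (0.087 and 0.0673). On swapped arrays alone Irgm1 lost its wild-type E. coli call (0.0564). Ifi47 in wild-type LPS gained a call on unswapped arrays alone (0.0419), and without MyD88-/- LPS mouse 2 (0.044) or MyD88-/- E. coli mouse 2 (0.0382). The cause was not tested. Centring shifted the median of all probes by at most 0.03. Mice of the same number and genotype correlated between -0.057 and 0.142 in their deviations and matched best in 2 of 8 cases. Arrays of a mouse themselves had a consensus correlation of only 0.118, so this check cannot decide whether the numbers are pairs. In the main fit the numbers were not taken as pairs. With the mouse number as a replicate block, 0 members were called in each genotype and stimulus difference. Gbp4 and, in part, Gbp2b and Iigp1 lie outside what these arrays measured.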
